A study of Mus musculus with 8 samples.

Results

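Complement is an ancient defence system of serum and tissue proteins, and 9 of its genes were followed here in diabetic mouse kidney after treatment with recombinant FGF4 (rFGF4). They were chosen by symbol as components and regulators of the cascade, in a rule that uses no measured value, though the list was drawn up with earlier results of these data known: *C1ra*, *C1s1*, *C4b*, *C2*, *C3*, *Cfb*, *Serping1*, *Cfi* and *Cd55*. These are 9 of the 55401 genes in the deposited table. RNA was measured in the kidneys of 8 male mice, 1 library per mouse, with 4 mice in the rFGF4 group (mice 1, 2, 3 and 5) and 4 in the vehicle group (mice 2, 3, 4 and 5). The sample labels describe the vehicle mice as a db/db model, a line that becomes obese and diabetic because it lacks a working leptin receptor. The labels of the treated mice state rFGF4 treatment and no genotype, while the study's text describes its kidney sequencing in mice made diabetic with streptozotocin, so which model was sequenced could not be settled. The rFGF4 is a non-mitogenic form of human FGF4 that was injected intraperitoneally every other day, at 1 mg/kg, over a course of 8 weeks begun at 12 weeks of age, and controls received PBS vehicle. Whether the sequenced mice followed that course is not stated, and no nondiabetic kidney was among the samples.

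Complement is started by 3 routes that meet at C3. In the classical pathway, C1q binds antibody or damaged cells and the proteases C1r and C1s cut C4 and C2 to form an enzyme that cleaves C3, while the lectin pathway reaches the same enzyme through mannose-binding lectins. In the alternative pathway, factor B joins C3b and amplifies cleavage. C1 inhibitor, factor I and decay-accelerating factor hold the cascade back. The liver makes most circulating complement, but tubular epithelium, fibroblasts and macrophages of the kidney also express its genes, and local C3 is known to increase in injured tubules.

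Expression was given as FPKM, fragments per kilobase of transcript scaled to the mapped fragments of the library, which corrects for transcript length and library size, so that levels of different genes can be set side by side. Summed FPKM ranged from 389407 to 552604 per library and mitochondrial genes made up 19.0% to 38.4% of it. The files give no counts, so the depth of each library is unknown. Markers of proximal tubule, distal nephron and podocytes were detected in every library, as the kidney label requires. The library of rFGF4 mouse 1 stood apart with the lowest summed proximal tubule markers (653 FPKM, against 1668 to 2934 in the other 7), and that of vehicle mouse 5 with the highest B and plasma cell markers (22929 FPKM, against 24.8 to 2718). Values without either mouse are given where leaving it out moved a member.

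The genes lie on 5 chromosomes, with positions given here in GRCm38 from the GENCODE M21 annotation, matched by Ensembl gene identifier. All 9 are protein-coding, and the table's values cover whole genes, exons and UTRs together. *C2* (ENSMUSG00000024371, chr17:34862604-34898265), *Cfb* (ENSMUSG00000090231, chr17:34856374-34862518) and *C4b* (ENSMUSG00000073418, chr17:34728380-34743882) sit on the minus strand within the major histocompatibility complex. *C3* (ENSMUSG00000024164, chr17:57203970-57228136, minus strand) is on the same chromosome but far from them. *C1ra* (ENSMUSG00000055172, chr6:124512405-124523443, plus strand) and *C1s1* (ENSMUSG00000038521, chr6:124530345-124542359, minus strand) are neighbours, while *Serping1* (ENSMUSG00000023224, chr2:84765387-84775444, minus strand), *Cfi* (ENSMUSG00000058952, chr3:129835884-129875332, plus strand) and *Cd55* (ENSMUSG00000026399, chr1:130439027-130462744, minus strand) stand alone.

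Some of these genes share sequence with a copy, so their fragments may be divided between the copies. Of all 50-base windows in the longest transcript, 48.0% occur also in a transcript of the paralog for *C1ra* and *C1rb*, 35.2% for *C4b* and *C4a*, 24.3% for *C1s1* and *C1s2*, and 13.3% for *Cd55* and *Cd55b*. Exons of *C2* and *Cfb* overlap the readthrough gene Gm20547 on the same strand, and *C2* also overlaps *Zbtb12* on the other strand. *C1s1* and *Cd55* each overlap an antisense gene. The values of these members are therefore less certain than those of *C3*, *Serping1* and *Cfi*.

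Upstream sequences are shown for 3 members with different orders of mice: *C3*, the member with the largest difference between the groups; *C1s1*, an initiating protease; and *Cd55*, a membrane regulator. Each is the 250 bases before the RefSeq start site in GRCm38.p6, written 5′ to 3′ on the gene's own strand (minus for all 3), and capitals mark matches to the C/EBP letters TTNNGNAAT. The regions are chr17:57228137-57228386 for *C3*, chr6:124542360-124542609 for the first of 2 *C1s1* starts, and chr1:130462745-130462994 for *Cd55*.
C3: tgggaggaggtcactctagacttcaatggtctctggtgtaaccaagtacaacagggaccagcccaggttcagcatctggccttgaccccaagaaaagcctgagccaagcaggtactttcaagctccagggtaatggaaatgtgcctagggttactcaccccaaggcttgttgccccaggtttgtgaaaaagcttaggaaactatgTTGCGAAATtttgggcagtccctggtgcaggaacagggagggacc
C1s1: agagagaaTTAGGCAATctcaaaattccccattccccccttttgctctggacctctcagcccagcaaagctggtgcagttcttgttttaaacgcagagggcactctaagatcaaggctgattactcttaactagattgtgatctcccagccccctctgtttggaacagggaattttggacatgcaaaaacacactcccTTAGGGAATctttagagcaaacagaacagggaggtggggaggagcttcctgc
Cd55: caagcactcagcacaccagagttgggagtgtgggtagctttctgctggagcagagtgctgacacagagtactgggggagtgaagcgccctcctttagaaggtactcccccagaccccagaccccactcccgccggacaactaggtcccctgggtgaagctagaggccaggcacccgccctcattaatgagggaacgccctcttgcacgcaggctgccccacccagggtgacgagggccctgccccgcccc

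RefSeq promoter sequence was matched for 4 of the 9 members, these 3 and *C1ra*. *C4b*, *C2*, *Cfb*, *Serping1* and *Cfi* had no match. Both strands were searched for letters of factors known to act on acute-phase genes: NF-kB (GGG, any 2 bases, then TTTCC), C/EBP (TTNNGNAAT), STAT (TTCNNNGAA) and IRF (GAAA, any 2 bases, then GAAA). The *C3* sequence held 1 C/EBP match, 45 to 37 bases before the start, and the *C1s1* sequence held 2, at 242 to 234 and at 52 to 44 bases. *C1ra* also held 2, at 73 to 65 and at 30 to 22 bases, and *Cd55* held none. Of all 32851 promoters of this length, 10.2% held the C/EBP letters. The letters of NF-kB, STAT and IRF, held by 1.41%, 7.02% and 2.98% of all promoters, were not found in these windows. A match describes letters and not a bound site.

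**Figure D1:**
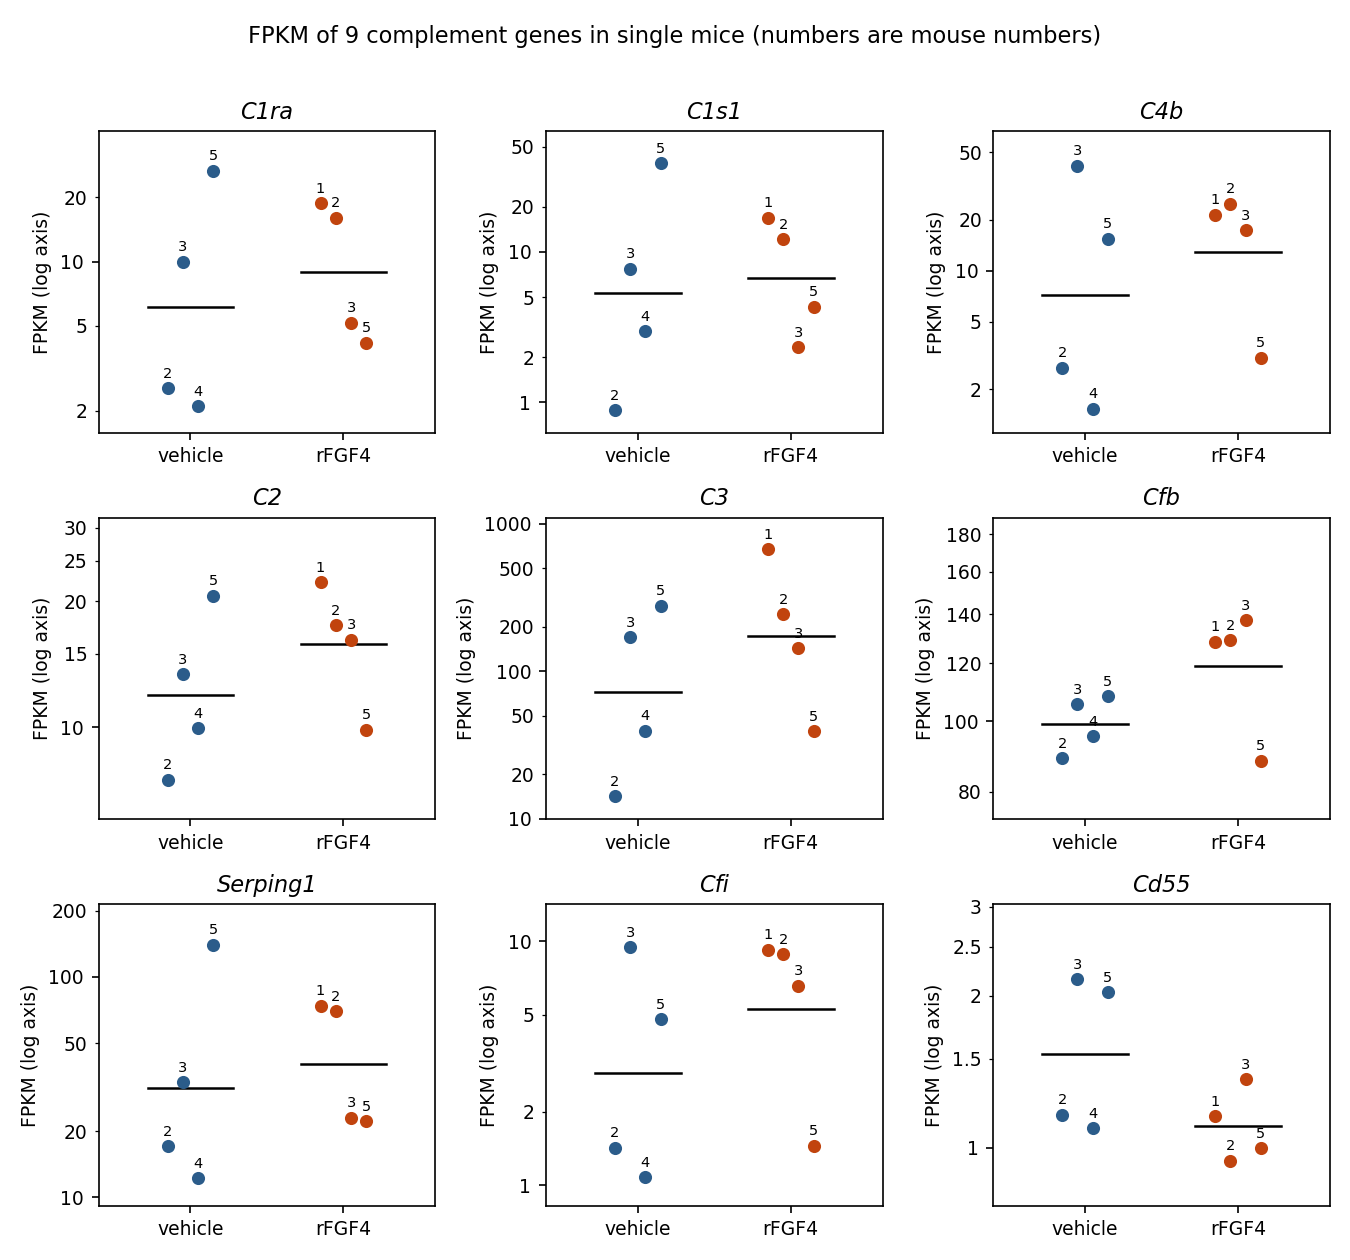
FPKM of the 9 genes in single mice, on log axes that differ between panels. Each point is 1 mouse with its number, blue for vehicle and orange for rFGF4. The bar is the geometric mean of a group's FPKM, with nothing added, unlike the log2(FPKM + 1) scale of the tests. *C3* ran from 14.1 to 670 FPKM, while *Cfb* stayed between 88.3 and 137, and the groups overlap in all 9 panels.

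The 9 genes were compared between rFGF4 and vehicle mice to ask whether the treatment altered renal complement expression. On the log2(FPKM + 1) scale the group means of 8 of the 9 were higher with rFGF4 and that of *Cd55* was lower, but no difference passed the test. The difference was smaller than the within-group SD on that scale for 7 members and slightly larger for *Cfb* (0.26 against 0.22) and *Cd55* (−0.28 against 0.24). In plain FPKM the means of *C1s1* (8.92 against 12.6) and *Serping1* (47.2 against 50.7) were lower with rFGF4, since 1 vehicle mouse was far above the rest. *C3* had the largest difference, with a mean of 274 ± 277 FPKM (SD, n = 4) in the rFGF4 mice against 125 ± 122 (SD, n = 4) in the vehicle mice. With limma on log2(FPKM + 1), 0 of the 9 met the criterion used in the study, p under 0.05 before adjustment together with a change of 1.5-fold or more. Of the 15150 tested genes 231 met it (1.52%), 165 of them higher (1.09%) and 66 lower (0.436%). This count moved with single mice, to 575 without rFGF4 mouse 5 and 432 without vehicle mouse 5. At an unadjusted p under 0.05 alone the counts were again 0 of 9, against 700 genes (4.62%), and after Benjamini-Hochberg adjustment no gene of the 15150 passed in limma (0%). The groups overlapped for all 9 members, whereas they did not overlap for 504 of the tested genes (3.33%), 403 higher (2.66%) and 101 lower (0.667%). All 9 passed the filter of at least 0.5 FPKM in 4 or more libraries. The median log2 fold change was 0.37 over the members and 0.09 over all tested genes, of which 10164 were above 0. The members' median rested on single mice: it was 0.07 without vehicle mouse 4 (5 of 9 above 0), 0.16 without vehicle mouse 2, 0.22 without rFGF4 mouse 1 and 0.97 without vehicle mouse 5. In mice 2, 3 and 5 of each group alone it was −0.14, with 4 of 9 above 0.

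The initiating proteases *C1ra* and *C1s1*, which encode C1r and C1s, differed more among mice than between groups. *C1ra* measured 18.8, 16.1, 5.17 and 4.17 FPKM in rFGF4 mice 1, 2, 3 and 5, and 2.55, 9.98, 2.10 and 26.6 FPKM in vehicle mice 2, 3, 4 and 5. *C1s1* measured 16.9, 12.1, 2.34 and 4.34 FPKM in the same rFGF4 mice, and 0.890, 7.73, 2.98 and 39.0 FPKM in the same vehicle mice. For both genes vehicle mouse 5 was highest, rFGF4 mice 1 and 2 came next, and every treated mouse fell within the vehicle range. The log2 fold change, rFGF4 minus vehicle, was 0.42 (SE 0.77, limma adjusted p = 0.953) for *C1ra* and 0.17 (SE 0.94, limma adjusted p = 0.980) for *C1s1*. Without vehicle mouse 5 these became 1.04 and 0.995, still short of the threshold, and without rFGF4 mouse 1 they became 0.10 and −0.22. With vehicle mouse 4 left out *C1ra* was −0.01, and with vehicle mouse 2 left out *C1s1* was −0.47, so the sign of either rested on single mice. In mice 2, 3 and 5 of each group alone *C1ra* was −0.33 and *C1s1* −0.50.

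*C4b* and *C2*, whose products are cut by C1s to build the C3-cleaving enzyme, showed a different order of mice. *C4b* measured 21.5, 24.9, 17.3 and 3.07 FPKM in the rFGF4 mice, and 2.68, 41.8, 1.54 and 15.4 FPKM in the vehicle mice. Vehicle mouse 3 was highest, and rFGF4 mouse 5 lay with vehicle mice 2 and 4 at the low end. *C2* measured 22.2, 17.5, 16.2 and 9.88 FPKM in the rFGF4 mice, and 7.49, 13.4, 9.94 and 20.6 FPKM in the vehicle mice. Here only rFGF4 mouse 1 was above all vehicle mice. The log2 fold changes were 0.68 for *C4b* (SE 0.97, limma adjusted p = 0.940) and 0.37 for *C2* (SE 0.33, limma adjusted p = 0.921), and with any 1 mouse left out they stayed above 0, at 0.07 to 1.43 and 0.16 to 0.61. In mice 2, 3 and 5 of each group alone *C4b* was −0.14 and *C2* 0.13. Without rFGF4 mouse 1 the values were 0.47 and 0.22, and without vehicle mouse 5 they were 0.97 and 0.61.

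*C3*, the protein at which all routes meet, was the most abundant member in 5 mice and spanned the widest range. It measured 670, 244, 142 and 39.3 FPKM in rFGF4 mice 1, 2, 3 and 5, and 14.1, 170, 39.6 and 278 FPKM in vehicle mice 2, 3, 4 and 5. rFGF4 mouse 1 was above every vehicle mouse, and the other 3 treated mice lay within the vehicle range. The log2 fold change was 1.26 (SE 1.09, 95% interval −1.25 to 3.76, limma adjusted p = 0.920), and the two-sided exact permutation test gave p = 0.429, where the smallest p that 4 against 4 mice can give is 0.0286. With 1 mouse left out the value ran from 0.50, without vehicle mouse 2, to 1.96, without rFGF4 mouse 5. It was 0.61 without rFGF4 mouse 1 and 1.90 without vehicle mouse 5, and 0.32 in mice 2, 3 and 5 of each group alone. *C3* made up 69.6% of the summed FPKM of the 9 genes in rFGF4 mouse 1 and 10.4% in vehicle mouse 2. Its within-group SD on the log2 scale was above that of 99.0% of the tested genes.

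*Cfb*, encoding factor B of the alternative pathway, was by contrast steady and high. It measured 128, 129, 137 and 88.3 FPKM in the rFGF4 mice, and 88.9, 105, 95.3 and 108 FPKM in the vehicle mice. Treated mice 1, 2 and 3 were above all vehicle mice, and treated mouse 5 was below all of them. The log2 fold change was 0.26 (SE 0.16, 95% interval −0.11 to 0.64, limma adjusted p = 0.918). Without rFGF4 mouse 5 the value was 0.40, with an unadjusted limma p of 0.0134, and it was below the fold change of 1.5 that the threshold asks. The groups then no longer overlapped, which follows from leaving out the 1 treated mouse below the vehicle mice. In that setting 575 of all tested genes passed the threshold, against 231 with all mice. The ratio of *C3* to *Cfb* FPKM therefore ran from 0.159 in vehicle mouse 2 to 5.22 in rFGF4 mouse 1, most of it from *C3*.

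The 3 regulators differed from each other in their order of mice. *Serping1*, encoding the C1 inhibitor that inactivates C1r and C1s, measured 73.9, 69.8, 23.0 and 22.2 FPKM in the rFGF4 mice, and 17.1, 33.3, 12.2 and 140 FPKM in the vehicle mice. It shared with *C1ra* and *C1s1* the high value in vehicle mouse 5 and the next highest in rFGF4 mice 1 and 2. Its log2 fold change was 0.34 (SE 0.76, limma adjusted p = 0.958), 1.04 without vehicle mouse 5, 0.05 without rFGF4 mouse 1 and −0.10 without vehicle mouse 4. In mice 2, 3 and 5 of each group alone it was −0.38. *Cfi*, encoding factor I, the protease that degrades C3b and C4b, measured 9.26, 8.87, 6.57 and 1.45 FPKM in the rFGF4 mice, and 1.43, 9.46, 1.08 and 4.81 FPKM in the vehicle mice. As for *C4b*, vehicle mouse 3 was highest and rFGF4 mouse 5 lay with vehicle mice 2 and 4. The log2 fold change was 0.65 (SE 0.63, limma adjusted p = 0.923), with a range of 0.32 to 1.13 when 1 mouse was left out, 0.44 without rFGF4 mouse 1 and 0.81 without vehicle mouse 5, and it was 0.11 in mice 2, 3 and 5 of each group alone.

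*Cd55*, encoding the membrane protein that speeds decay of the C3-cleaving enzymes, was near the lower limit of the tested range. It measured 1.15, 0.941, 1.37 and 0.996 FPKM in the rFGF4 mice, and 1.16, 2.16, 1.09 and 2.03 FPKM in the vehicle mice. Vehicle mice 3 and 5 were above all treated mice, while vehicle mice 2 and 4 lay among them. *Cd55* was the one member with a negative log2 fold change, −0.28 (SE 0.17, 95% interval −0.68 to 0.11, limma adjusted p = 0.918), and it remained negative with any 1 mouse left out, from −0.38 to −0.18. With 0.1 in place of 1 added to FPKM it was −0.45, since the addition shrinks differences of low genes. Two-sided exact permutation tests of the 9 members, adjusted for no multiplicity, gave p-values between 0.171 for *Cfb* and 0.886 for *C1s1*.

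**Figure D2:**
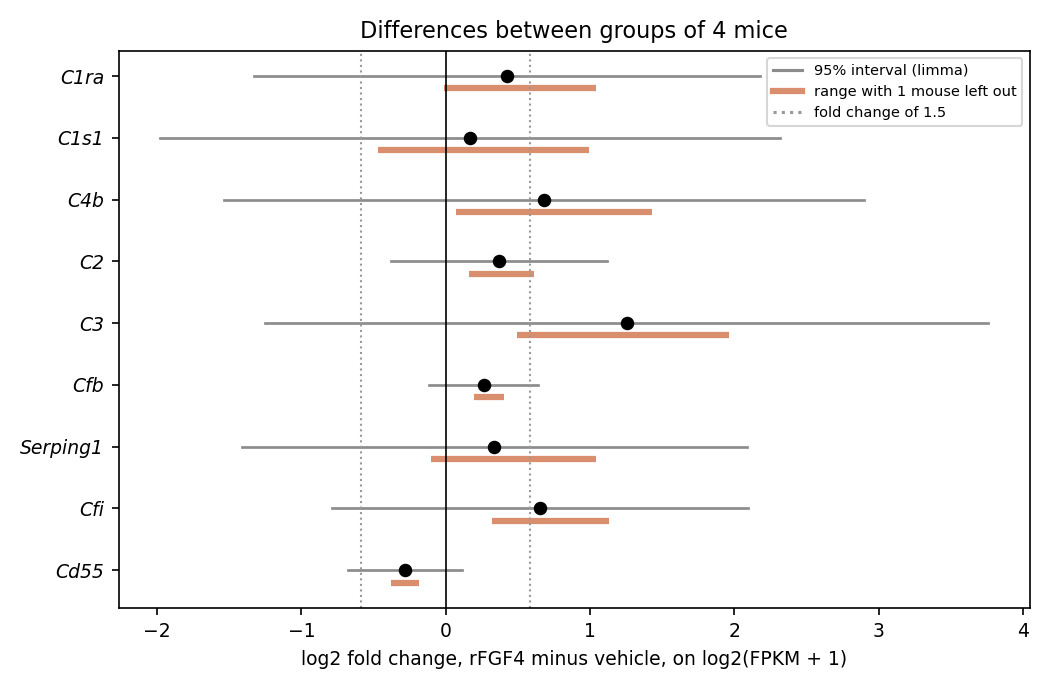
Log2 fold change of each gene, rFGF4 minus vehicle on log2(FPKM + 1), with the 95% limma interval (grey line), the range when 1 mouse is left out (orange bar) and a fold change of 1.5 either way (dotted lines). All 9 intervals cross 0, and the orange bars of *C1ra*, *C1s1* and *Serping1* cross it too.

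The order of the mice was the same for *C1ra* and *Serping1* and differed between the other members, and these orders are given as descriptions of the same 8 libraries. For 7 members, all but *C1s1* and *Cd55*, the 3 lowest mice were rFGF4 mouse 5 and vehicle mice 2 and 4. The highest mouse was vehicle mouse 5 for *C1ra*, *C1s1* and *Serping1*, vehicle mouse 3 for *C4b*, *Cfi* and *Cd55*, rFGF4 mouse 1 for *C3* and *C2*, and rFGF4 mouse 3 for *Cfb*. Within-group SD on the log2 scale was above that of 95% of the tested genes for 6 members, and *Cfb* (36.4th percentile), *Cd55* (41.2) and *C2* (82.7) were the other 3. Ratios between members varied accordingly. *C3* over *C1s1* ran from 7.12 in vehicle mouse 5 to 61.0 in rFGF4 mouse 3, and *C4b* over *C1s1* from 0.397 to 7.42 in the same 2 mice. *C1s1* and *C1ra*, whose products work as a pair, stayed nearer to each other, with ratios of 0.348 to 1.46.

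**Figure D3:**
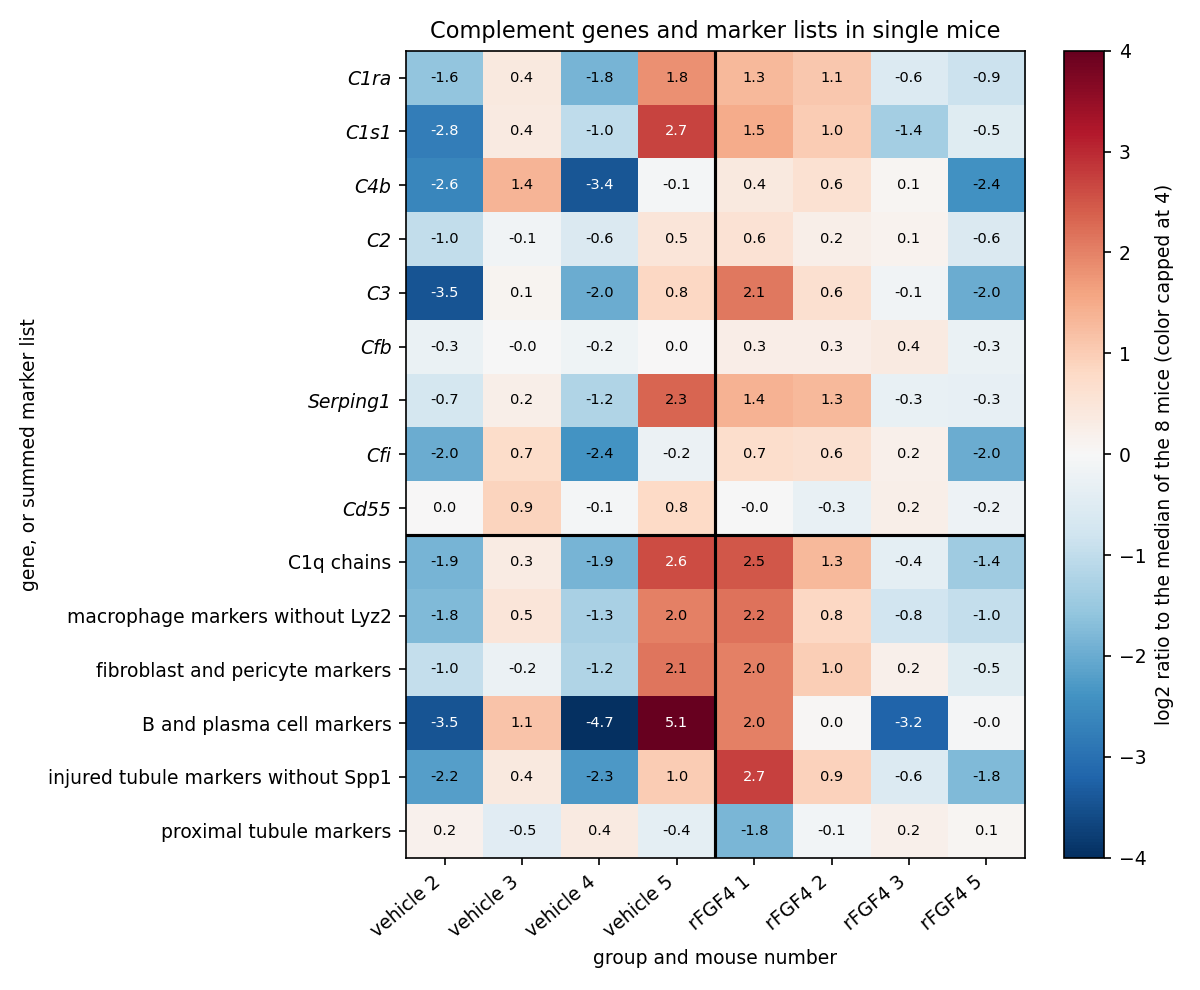
Log2 ratio of FPKM to the median of the 8 mice for the 9 genes (upper block) and for C1q chains and summed cell type markers (lower block), with red above and blue below the median. *C1s1* and *Serping1* peak with C1q chains and B and plasma cell markers in vehicle mouse 5, macrophage markers without *Lyz2* are high in both vehicle mouse 5 and rFGF4 mouse 1, *C3* peaks with injured tubule markers in rFGF4 mouse 1, and *Cfb* changes little.

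Markers of some other cells were highest in the same mice as some of the members, though not all. Injured tubule markers other than *Spp1*, among them *Havcr1* and *Lcn2*, summed to 880, 253, 89.8 and 38.5 FPKM in rFGF4 mice 1, 2, 3 and 5, and to 28.8, 174, 26.7 and 268 in vehicle mice 2, 3, 4 and 5. All 7 markers of that list, *Spp1* included, were highest in rFGF4 mouse 1, the mouse with the highest *C3* and *C2*. *Spp1* alone gave 92.2% to 96.8% of the full list's sum. Macrophage markers, 8 genes, summed to 963, 322, 83.3 and 67.9 FPKM in the rFGF4 mice and 30.4, 273, 46.9 and 1444 in the vehicle mice, with 6 highest in rFGF4 mouse 1 and 2, *Lyz2* and *Cd68*, in vehicle mouse 5. *Lyz2* gave 58.4% to 87.9% of that sum, and without it the sum was 192 FPKM in rFGF4 mouse 1, 175 in vehicle mouse 5 and 12.6 to 76.7 in the others. Fibroblast and pericyte markers, 6 genes, reached 112 FPKM in rFGF4 mouse 1 and 120 in vehicle mouse 5, against 11.9 to 53.9 in the others. All 7 B and plasma cell markers were highest in vehicle mouse 5, the mouse with the highest *C1ra*, *C1s1* and *Serping1*. So were all 6 T cell markers (39.1 FPKM in sum, against 1.57 to 15.04) and all 4 lymph node stroma markers (82.2 FPKM, against 3.46 to 18.3). The mitochondrial share was 19.0%, 24.7%, 29.8% and 36.0% in rFGF4 mice 1, 2, 3 and 5, and 38.4%, 34.2%, 37.2% and 24.4% in vehicle mice 2, 3, 4 and 5, lowest in the mice with the most *C3*. Red blood cell markers summed to 120 FPKM in rFGF4 mouse 1, against 437 to 4325 in the others. No marker of these lists was at the floor of the table in all mice, though *Ms4a1*, *Cd3d* and *Ccl19* were there in some. The part of these cells and of the mitochondrial share in the members' values was not tested, and in whole kidney RNA more cells of a type cannot be told apart from more RNA per cell. Leaving out both rFGF4 mouse 1 and vehicle mouse 5, a choice made after these values were seen, gave log2 fold changes of 1.25 for *C3* (SE 1.02, limma adjusted p = 0.779), 0.61 for *C1s1* (SE 0.69, limma adjusted p = 0.834) and 0.76 for *Serping1* (SE 0.54, limma adjusted p = 0.759), with 0 of 9 members and 273 of all 15150 tested genes past the threshold.

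**Figure D4:**
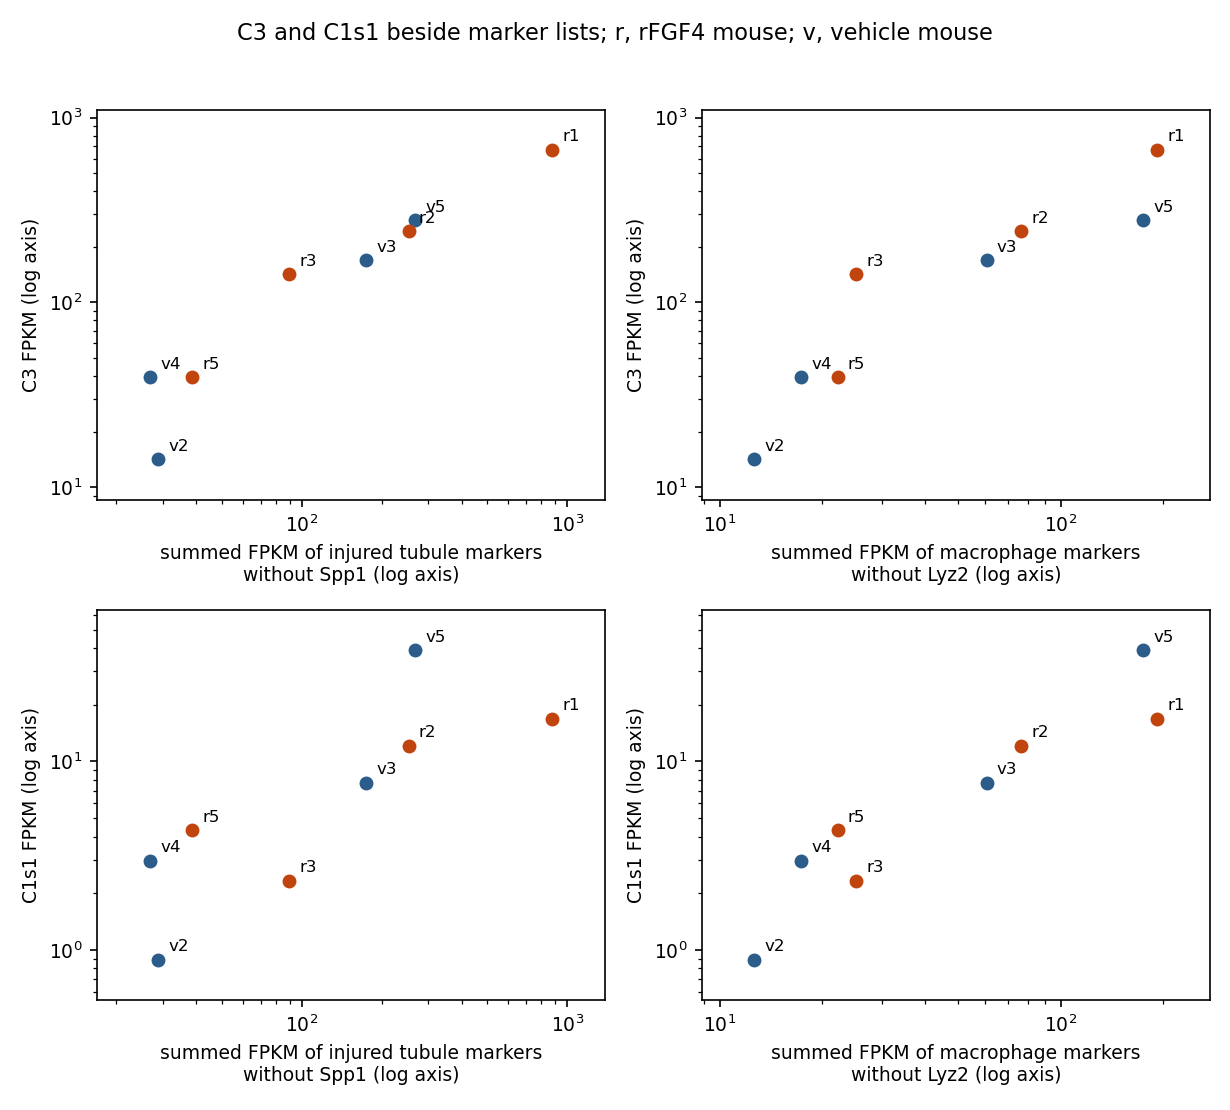
*C3* (top) and *C1s1* (bottom) FPKM in each mouse against the summed FPKM of injured tubule markers without *Spp1* (left) and of macrophage markers without *Lyz2* (right), all on log axes; r marks rFGF4 mice in orange and v vehicle mice in blue. *C3* is highest where injured tubule markers are highest (880 FPKM, rFGF4 mouse 1), and *C1s1* is highest in vehicle mouse 5, where macrophage markers (175 FPKM) come second to rFGF4 mouse 1 (192 FPKM).

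Hepatocyte markers were looked at because the liver is the main source of serum complement. Their 8 genes summed to 299 to 608 FPKM in the rFGF4 mice and 224 to 371 in the vehicle mice, and *Serpina1a* gave 52.6% to 83.6% of the sum. *Serpina1a* measured 152 to 458 FPKM over all mice and *Alb* only 2.62 to 15.6. *Fga* measured 120, 59.3, 41.3 and 10.0 FPKM in the rFGF4 mice and 7.26, 64.1, 9.73 and 10.0 in the vehicle mice. All 8 had a log2 fold change above 0, as had 10164 of the 15150 tested genes, with a median of 0.54, and 1 passed the threshold, against 1.52% of all tested genes. This was *Serpina1a*, at 0.60 (SE 0.26, limma adjusted p = 0.918). Of the 8, 3 were highest in rFGF4 mouse 1 and 2 in vehicle mouse 5. Among the other marker lists, 1 podocyte gene passed the threshold as higher and 1 adipocyte gene as lower. Several of these lists were one-sided too. All 7 injured tubule (median 1.01), 8 macrophage (0.42), 6 fibroblast and pericyte (0.54) and 5 podocyte markers (0.26) were above 0. Of the 6 endothelial (−0.21), 5 red blood cell (−1.97) and 4 lymph node stroma markers (−0.27), 0 were above 0. Whether these genes mark liver RNA in these libraries, and their part in the members' values, was not tested.

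The genes that varied most like *C3* were ranked by Pearson's r of their deviations from the group means over the 8 mice, among 15149 tested genes, as a description with no p. *Clu*, encoding clusterin, a secreted chaperone that also blocks the terminal complement complex, ranked first with r = 0.997. It measured 439, 292, 201 and 101 FPKM in the rFGF4 mice and 61.9, 228, 94.0 and 282 in the vehicle mice, nearly the order of *C3*. The next were *Dusp8* (0.996), a phosphatase of MAP kinases, *Irf8* (0.990), a transcription factor of myeloid cells, *Cldn5* (0.990), an endothelial tight junction protein, and *Rcc1l* (0.989). Among the members *C2* was the most like *C3* (0.970, rank 40), then *C1ra* (0.898, rank 986), while *Cfb* (0.764) and *Cd55* (0.677, rank 5577) were the least.

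Other complement genes gave no call between the groups either. Of 49 further complement genes, 26 were expressed enough to be tested, 16 of them had a log2 fold change above 0, the median was 0.06, and 0 passed the threshold in limma, against 1.52% of all tested genes. A single gene, *Mbl1*, had an unadjusted p under 0.05. *Mbl1* encodes a mannose-binding lectin that starts the lectin pathway, and it measured 1.37, 0.789, 1.39 and 1.71 FPKM in the rFGF4 mice and 1.96, 2.25, 2.69 and 1.97 in the vehicle mice. Every treated mouse was below every vehicle mouse. The log2 fold change was −0.48 (SE 0.16, unadjusted limma p = 0.0146, adjusted p = 0.918), which is short of the fold change of 1.5 on this scale, and the two-sided exact permutation p was 0.0286, the smallest possible. The addition of 1 shrinks differences of genes this low: the means were 1.32 and 2.21 FPKM, and with 0.1 added instead the value was −0.74 and passed the threshold. Such separation was found in 0.667% of the tested genes in that direction, and the adjusted p does not set *Mbl1* apart from them.

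The 3 chains of C1q, which recognise the targets of the classical pathway, ordered the mice much as the macrophage markers did. *C1qa* measured 163, 73.2, 21.3 and 10.5 FPKM in the rFGF4 mice and 9.23, 33.4, 7.05 and 193 in the vehicle mice. Its log2 fold change was 0.63 (SE 1.16, limma adjusted p = 0.953), and that of *C1qb* was 0.70 (SE 1.13, limma adjusted p = 0.949). Of the regulators, *Clu* differed by 0.69 (SE 0.59, limma adjusted p = 0.920) and *Cpn1*, encoding the carboxypeptidase that inactivates C3a and C5a, by 0.37 (SE 0.25, limma adjusted p = 0.919). *C1qbp*, a mitochondrial protein that can bind C1q, was nearly level in all mice at 28.9 to 37.4 FPKM. The close copies of members were expressed less than the members. *C1rb* averaged 3.21 FPKM over the 8 mice, *C1s2* 1.29 and *C4a* 0.804, and *Cd55b* was listed at 0 in every library. Their log2 fold changes were 0.14 for *C1rb*, −0.14 for *C1s2* and 0.21 for *C4a* (limma adjusted p = 0.977, 0.971 and 0.931), each overlapping between the groups.

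**Figure D5:**
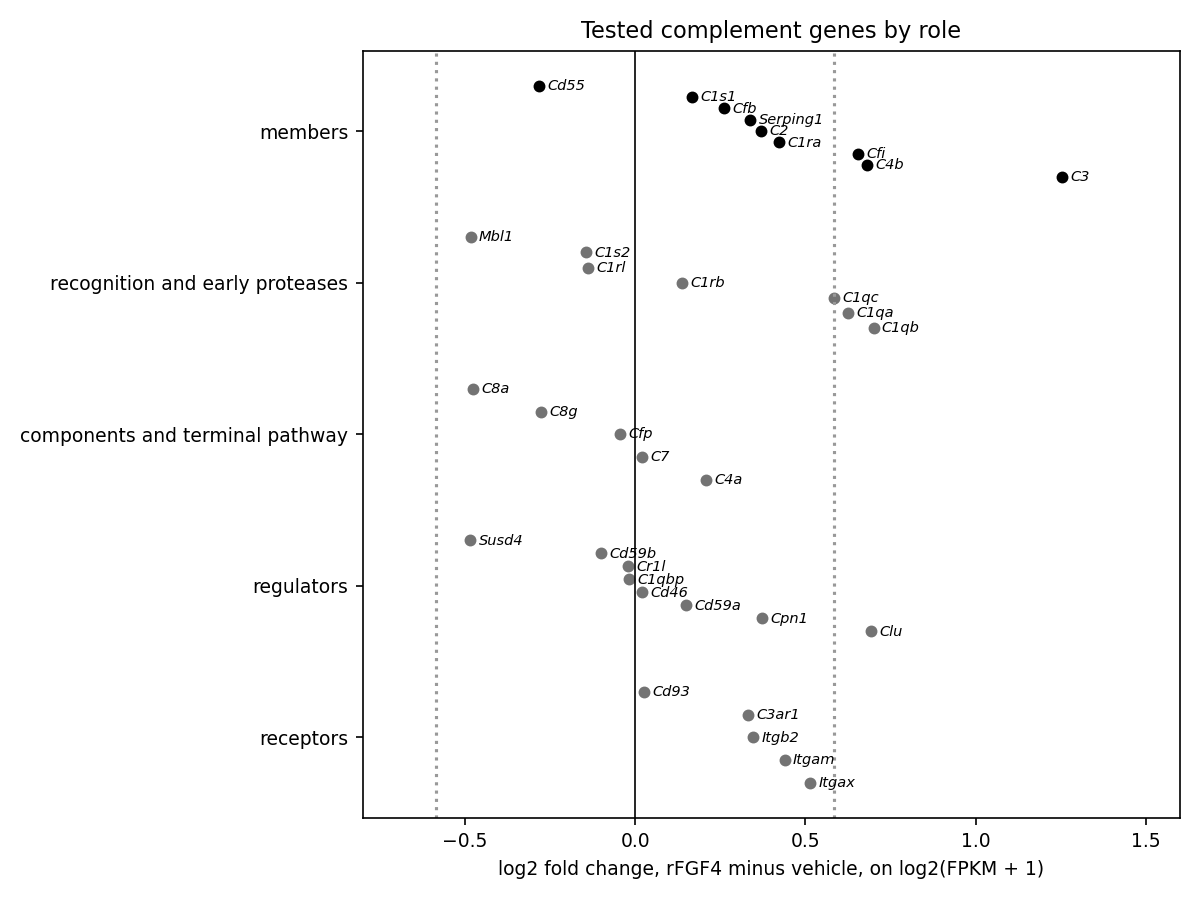
Log2 fold change, rFGF4 minus vehicle on log2(FPKM + 1), of the 9 members (black) and of 25 other tested complement genes by role (grey), with dotted lines at a fold change of 1.5. The members have a median of 0.37 and the 26 others tested a median of 0.06, and no gene of either set passed the threshold.

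By role, 4 of 7 tested recognition molecules and early proteases, 2 of 5 components and terminal proteins, 5 of 9 regulators and 5 of 5 receptors had a log2 fold change above 0. The receptors *C3ar1*, *Itgam*, *Itgax*, *Itgb2* and *Cd93* lay between 0.03 and 0.51, and the integrins among them are also expressed by macrophages. Of 22 cytokines, receptors and transcription factors known to act on complement genes, 19 were tested, 14 had a log2 fold change above 0, the median was 0.38, and 0 passed the threshold, against 10164 of 15150 above 0 and 1.52% past the threshold among all tested genes. *Cebpb*, the C/EBP factor of acute-phase responses, had the largest of these at 0.92 (SE 0.53, limma adjusted p = 0.918). *Irf1*, a factor through which interferon acts, was highest in vehicle mouse 3 at 39.4 FPKM, the mouse in which *C4b*, *Cfi* and *Cd55* were highest, against at most 20.9 FPKM in the other mice.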

How the data were processed

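Kidney RNA of 8 mice was sequenced, 1 library per mouse, and the deposited table gives FPKM per gene. Per the study's methods, the authors assembled mapped reads with StringTie and estimated FPKM from them, and their own comparison used edgeR. The submitters' processing notes also name HISAT2 2.0, Bowtie 0.12.2, StringTie 1.3.0 and the build mm8, with no role given. The gene identifiers were found in GENCODE M21 of GRCm38 for 99.5% of genes, and coordinates come from there. The value 0.0001 stands in place of 0 in the deposited FPKM. The table's columns of the authors' comparison, among them the deposited fold ratio, log2 fold change and p-value, were not used. There are no counts, so the depth behind each value and its counting error are unknown, and precision rests on 4 mice per group.

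Groups came from the sample labels. Genes with at least 0.5 FPKM in 4 or more libraries (15150) were tested on log2(FPKM + 1) with limma 3.58.1 (trend, two-sided, R 4.3.3) and Benjamini-Hochberg adjustment over all of them, and fold changes on this scale understate those of low genes. Single members were also tested by a two-sided exact permutation test over mice. The limma step was checked on simulated data. All 9 members are named, and of the wider complement list those past the threshold or with an unadjusted p under 0.05, the 5 with the highest mean FPKM and the paralogs; *Cebpb*, *Irf1*, the receptors and the single cell type markers were named after their values were seen. A few genes of the lists are not reported here by name. The members and all lists were chosen with earlier results of these data known. Alternatives were another pseudocount, filters, scalings, variance model and fold change, a replicate block, and leaving out mice. Mice with the same number in both groups were not paired, since their deviations from the group means did not correlate positively.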

Additional observations from a re-analysis of the deposited data

Results flagged for a closer look

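In 66 groups of 4 mice examined, 5 had a highest or lowest mouse whose gap to the next, as a share of the group's range, was above Dixon's 95% critical value for 4 samples, and chance alone marks about 1 in 20 groups. *Cfb* in the rFGF4 group was lowest in mouse 5, with a gap of 0.845 of the range on log2(FPKM + 1). *C1s2*, the copy of *C1s1*, was highest in vehicle mouse 5 in the vehicle group, with a gap of 0.962 on the same scale. The summed FPKM of proximal tubule markers and of distal nephron and collecting duct markers were both lowest in mouse 1 of the rFGF4 group. Their gaps were 0.856 and 0.893 on the log of the sum, and gaps on the plain sum differ. The summed FPKM of T cell markers was highest in mouse 5 of the vehicle group, with a gap of 0.887 on the log of the sum.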

How the results depend on the processing

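Of the 144 log2 fold changes of the 9 members under the alternative settings, 133 kept their direction and side of the threshold for an unadjusted p of 0.05, 10 changed sign and 1, *Cfb* without rFGF4 mouse 5, passed it. The other filters, the variance model and the fold change of 2 could not alter a member's log2 fold change. The last of these also left p as it was, so part of the 133 was fixed in advance. The number of members past the threshold was 0 under each alternative run. Genes past the threshold changed from 231 (165 higher, 66 lower) to 348 (249 higher) with a pseudocount of 0.1, to 106 higher and 76 lower after scaling every library to the same median ratio, and to 54 (48 higher, 6 lower) at a fold change of 2. Rescaling without mitochondrial and immunoglobulin genes gave 220 higher and 53 lower. With 1 mouse left out the count ran from 187 to 575, 127 to 419 higher and 51 to 156 lower, and it was 575 without rFGF4 mouse 5 and 432 without vehicle mouse 5. Members with groups that do not overlap, and members with an exact permutation p of 0.05 or less, ran from 0 to 1. Wider complement genes past the threshold changed from 0 to 1 with a pseudocount of 0.1 (*Mbl1*, −0.74) and to 1 in mice 2, 3 and 5 without the block (*Susd4*, −0.75), and ran from 0 to 2 with 1 mouse left out (among them *Susd4* without rFGF4 mouse 1 and *Itgax* without vehicle mouse 5). The cause of these changes was not tested.

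Same-numbered mice correlated at −0.23, −0.16 and −0.39 in their deviations, and differently numbered mice at −0.56 to 0.57. These values showed no pairing by number, but so few cannot exclude it. The replicate block over mice 2, 3 and 5 gave 263 genes (182 higher, 81 lower) and 0 members past the threshold, with log2 fold changes of −0.33 for *C1ra*, −0.50 for *C1s1*, −0.14 for *C4b* and −0.38 for *Serping1*. The same 6 mice without the block gave the same 4 values. Other changes of sign came from leaving out vehicle mouse 4 (*C1ra* −0.0094, *C1s1* −0.11, *Serping1* −0.10), vehicle mouse 2 (*C1s1* −0.47), rFGF4 mouse 1 (*C1s1* −0.22) or rFGF4 mouse 2 (*C1s1* −0.07), and the highest values of these 3 genes came without vehicle mouse 5 (*C1ra* 1.04, *C1s1* 0.995, *Serping1* 1.04). No exact permutation test was run within the block, since 3 pairs cannot pass the threshold. The members' median, 0.37 with all mice, was −0.14 under the block, 0.07 to 0.97 with 1 mouse left out and 0.61 without both rFGF4 mouse 1 and vehicle mouse 5. That of the wider list, 0.06 with all mice, was −0.30, −0.09 to 0.33 and 0.24. Without counts, counting error at low genes such as *Cd55* is unknown.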
